A study of Mus musculus with 2 samples.

Results

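CTCF peaks at CpG-rich promoters that serve 1 protein-coding gene were examined in liver of newborn mice. A peak was a member when it lay on chromosomes 1 to 19 and its summit, the position of highest signal, lay within 1 kb of the annotated 5' end of a protein-coding gene. The 1000 bp around that 5' end, 500 bp on each side, had to hold at least 50% G and C. The ratio of observed to expected CpG dinucleotides there had to be at least 0.6. The nearest 5' end decided, and divergent gene pairs with 5' ends at most 1 kb apart were left out. The rule found 4153 peaks, 7.45% of the 55759 peaks on these chromosomes, out of 57220 peaks in the whole list. They lay at 3565 of 8306 promoters of this kind. No measured signal entered the rule beyond the presence of the peak.

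CTCF binding was measured by chromatin immunoprecipitation and sequencing (ChIP-seq) in livers of mice of the strain B6NCrl on postnatal day 0, with no treatment. The series had 1 group with 2 replicates, each from powdered livers pooled over several dissections. Both replicates carried the same biosample and donor labels, so their spread may be technical. The sex of the mice was not recorded. A peak list shows no expression, so the tissue label could not be checked against cell type markers, and peaks of hepatocytes, blood-forming cells and other cells of the newborn liver could not be told apart.

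CTCF is a zinc finger protein that reads a long, asymmetric DNA motif and stops the cohesin ring as it extrudes chromatin loops. The direction of the motif decides from which side cohesin is stopped. CpG-rich promoters, often called CpG islands, are the promoters of most widely expressed genes and of many developmental regulators. Their CpGs are usually free of methylation, and methylation of CpGs inside the motif can block CTCF.

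The DNA under the strongest peaks is shown for the form the CTCF core takes at these promoters. The lines give 30 bases, the best match to the 14-base CTCF core and 8 bases on each side, read 5' to 3' on the strand of the core. Coordinates are on mm10, and the sequence was taken from RefSeq's copy of GRCm38. Capitals are core bases that fit the core, and a lower-case letter inside the core is a mismatch. The first 7 come from the 10 strongest members, in order of signal, and the next 4 are further members whose core fits at all positions.
Gins4, chr8:23237877-23237906, minus strand: ccgattcgCCACaAGAcGGCGCtgcctggt
Med4, chr14:73509889-73509918, plus strand: tcctttgcCCtGTAGATGGCGCtagaactg
Adprhl2, chr4:126321738-126321767, minus strand: actccgggCCACaAGGGGGCGCtgtggggc
Lsm11, chr11:45945019-45945048, plus strand: agccgcggCCACCAGGGGGCAGcatagatt
Piezo1, chr8:122551704-122551733, minus strand: tctgacagCCcCCAGAGGGCGCtgcgccat
Rrp1, chr10:78413117-78413146, minus strand: tcctcctcCCtGCAGGGtGCAGttgcgcct
Ocel1, chr8:71371761-71371790, plus strand: gcgccctgCCgCCAGGGGGCGCcagagagc
Gaa, chr11:119267928-119267957, plus strand: gccctcagCCACTAGGGGGCGCagcgataa
Rplp0, chr5:115559282-115559311, plus strand: gctccgacCCAGCAGAGGGCAGcaggtctg
Noc3l, chr19:38819277-38819306, minus strand: gaccagagCCACCAGGGGGCGCacgcaccg
Fam133b, chr5:3543758-3543787, plus strand: cctccgcaCCACCAGGGGGCGCcgtggcgc

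Among these 7 cores only that of Lsm11 had no mismatch, and those of Gins4 and Rrp1 had 2. Several cores had another base than the A that the core asks for at position 3, counted from its 5' end. Written as the base of the core, its position and the base found, Med4 and Rrp1 had A3T, Ocel1 had A3G and Piezo1 had A3C. Of these 7, 6 had the core on the strand of their gene, and Lsm11 had it on the other strand. Of the 4 further perfect cores, all 4 lay on the strand of their gene.

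Some of the strongest members held no core with at most 2 mismatches. These lines show the summit with 50 bases on each side for the 3 strongest such members whose window held no annotated exon base. They are read on the strand of the gene, with every CpG in capitals.
Api5, chr2:94438181-94438281, minus strand: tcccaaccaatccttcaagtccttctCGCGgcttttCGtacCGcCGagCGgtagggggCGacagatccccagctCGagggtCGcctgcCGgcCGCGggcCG
Ing5, chr1:93803766-93803866, plus strand: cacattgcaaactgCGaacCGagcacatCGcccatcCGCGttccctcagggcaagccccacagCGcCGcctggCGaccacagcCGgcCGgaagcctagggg
Becn1, chr11:101302302-101302402, minus strand: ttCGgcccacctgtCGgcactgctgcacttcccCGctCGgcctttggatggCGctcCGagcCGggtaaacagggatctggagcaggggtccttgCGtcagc

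These windows held 13, 10 and 8 CpGs, against 11, 6 and 9 in the windows of the same length at Gins4, Med4 and Adprhl2. Their best matches to the core had 3 mismatches. Api5, an inhibitor of apoptosis, had a signal of 460.3, Ing5, a reader of methylated histone H3, one of 457.8, and Becn1, a core autophagy protein, one of 450.0. The cores of 2 other strong members with 3 mismatches are given in the same 30-base form.
Crls1, chr2:132846578-132846607, plus strand: cgccgctgCCgCgcGGGGGCGCcggtgagc
Gemin4, chr11:76217698-76217727, minus strand: agcctaggCCgagAGGGGGCGCtgtggcta

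Both lines keep the G-rich right part of the core whole, and their mismatches fall on positions 3 to 6. Crls1 makes cardiolipin, the lipid of the inner mitochondrial membrane, and Gemin4 belongs to the SMN complex, which assembles spliceosomal particles.

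CTCF peaks were frequent at CpG-rich single promoters. Of these promoters 42.9% had at least 1 peak (exact 95% interval 41.9 to 44.0; replicate lists alone 43.5% ± 0.20, SD, n = 2). Of 11051 single promoters below the GC or the CpG threshold, here called CpG-poor, 14.2% had one (13.6 to 14.9). Of 1450 genes in divergent pairs 26.8% had one (24.5 to 29.1). Each summit counted only for its nearest 5' end, so the genes of a divergent pair competed for the peaks between them. Their share can be lowered by this count and is not directly comparable with that of single promoters. With only the stronger 28610 peaks of the list, 19.5% of the CpG-rich single promoters had a peak. The intervals here and below cover counting error over promoters or peaks, not variation between animals. Most promoters with a peak had exactly 1 (3017), while 508 had 2, 36 had 3 and 4 had 4. The 4 with the most peaks were Carm1, an arginine methyltransferase, Cdc42ep3, an effector of the GTPase Cdc42, Cgnl1, a cell junction protein, and Setd7, a lysine methyltransferase. At Carm1 the summits lay 697 and 126 bp upstream and 322 and 804 bp downstream of the 5' end, and the strongest had a signal of 194.3. At Cdc42ep3 the strongest of the 4 reached only 25.5. At the 508 promoters with 2 peaks the summits lay a median of 615.5 bp apart. In 436 of these pairs at least 1 peak had no single best core. The other pairs held 38 with both cores on 1 strand, 19 with cores pointing towards each other and 15 with cores pointing away.

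The share of promoters with a peak was somewhat higher where CpGs were denser. In 3 groups of promoters from the lowest to the highest CpG ratio it was 38.9%, 44.1% and 45.8% (37.1 to 40.7, 42.3 to 46.0 and 43.9 to 47.6). By GC content the shares were 40.9%, 43.9% and 44.0%. The members at the most CpG-dense promoters were weaker and held the core less often. Their median signal was 60.8, 52.4 and 42.0 from the lowest to the highest CpG group, and the share with the core was 41.2%, 40.7% and 33.6%.

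Signal at these promoters spread from the weakest to the strongest peaks of the list. The deposited signal has no stated scale and serves here to rank peaks within a list. The signal of members ran from 4.24 to 640.6 with a median of 50.5, set against medians of 67.5 for CpG-poor single promoters, 35.2 for divergent pairs and 74.2 for peaks not at a 5' end. The middle member stood at percentile 40.5 of the list (quartiles 17.4 and 69.9; replicate lists alone 40.6 ± 0.54, SD, n = 2). Of the members 504 (12.1%) were among the 5722 strongest peaks of the list and 667 (16.1%) among the 5722 weakest, against 10.2% and 10.03% of all peaks on these chromosomes. Of the 100 strongest peaks 17 were members.

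The strongest member lay 213 bp upstream of Gins4, a subunit of the GINS complex of the replicative DNA helicase, with a signal of 640.6 (replicate 1 336.0, replicate 2 309.3). It ranked 9 in the whole list and 5 and 14 in the replicate lists. Med4, a subunit of the Mediator complex, followed with 627.7 (312.8 and 317.0), with its summit 90 bp upstream. At Adprhl2, which removes ADP-ribose from serines of proteins, the signal was 608.5 (302.8 and 307.9). All 3 ranked among the 35 strongest peaks of both replicate lists. At Lsm11, a component of the U7 particle that trims histone mRNA, it was 594.8 (311.8 and 287.0). Piezo1, a mechanically gated ion channel, had 570.0 (286.3 and 284.3), and Rrp1, a ribosome biogenesis factor, 568.8 (295.0 and 275.7). Ppif, the mitochondrial cyclophilin, had 565.6 (290.1 and 277.2). All of these lay upstream of the 5' end, between 58 and 372 bp away. Rab2b, a small GTPase of the secretory pathway, had 563.6 (280.8 and 286.5) over a summit 79 bp inside its 5' UTR. Sh3gl1, an endophilin of endocytosis, had 563.5 (295.9 and 268.3), and Ocel1 had 562.3 (281.5 and 282.8) over a summit in a coding exon.

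The weakest members were Gsg1l and Trap1, each at 4.24, followed by Ankrd11 at 4.27, Fem1c at 4.33 and Wdr12 at 4.34. Trap1 is a mitochondrial chaperone, Ankrd11 a chromatin regulator and Wdr12 a ribosome biogenesis factor. Of these 5, only Wdr12 was matched in both full replicate lists, with 4.62 and 4.84. The others were found in the full list of replicate 2 alone.

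The CTCF core was searched on both strands in the summit and the 50 bp on each side, and up to 2 mismatches were allowed. It was present at 1591 members, 38.3% (36.8 to 39.8; replicate lists alone 37.7% ± 0.015, SD, n = 2). It was found at 53.9% of peaks at CpG-poor single promoters, 30.3% at divergent pairs and 74.9% of peaks not at a 5' end. The difference from CpG-poor promoters was -15.6 points (95% Newcombe interval -18.4 to -12.8). From divergent pairs it was 8.05 points (3.28 to 12.5), and from peaks away from 5' ends -36.6 points (-38.1 to -35.0). Windows of the same length gave the background. The core stood in 6.14% of windows around the 5' ends of promoters without a peak and 10.3% of those with one. It stood in 3.23% and 2.89% of windows moved 1 kb downstream and upstream of the member summits. With 1 mismatch allowed 13.1% of members held the core, and among members of the stronger 28610 peaks of the list 59.2% did.

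Signal followed the match to the core. Median signal was 308.2 for the 69 members with a perfect core, against 208.5 for the 475 with 1 mismatch and 85.6 for the 1047 with 2 mismatches. The 1486 members with 3 mismatches had 43.9 and the 1076 with 4 or more had 27.1. Exceptions stood at both ends. Gorasp2, which stacks the Golgi, had a best match with 4 mismatches and a signal of 425.8, and Rfc3, a subunit of the clamp loader of DNA replication, one with 5 mismatches and 253.8. Ankrd11, at 4.27, had a core with 2 mismatches. The whole list was also cut into 5 equal groups by signal, and in each of them the members held the core less often than peaks away from 5' ends. In the weakest group the shares were 17.5% and 52.8%, and in the strongest 73.9% and 91.4%. CpG-poor promoters lay between, with 27.4% and 82.9%.

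**Figure D1:**
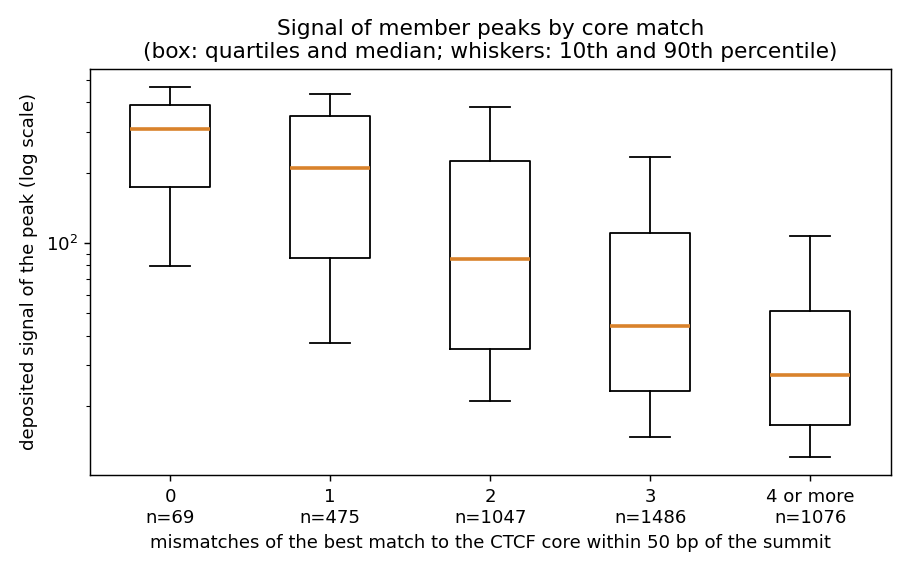
Deposited signal of the 4153 member peaks on a log scale, by mismatches of the best core match within 50 bp of the summit. Boxes show quartiles and median, whiskers the 10th and 90th percentile; the median falls from 308.2 without a mismatch to 27.1 with 4 or more.

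The rule chose promoters by GC content and CpG ratio over sequence that holds most of these cores, so the CpG counts of the cores are a description and no finding. Of 1520 members with 1 best core, 1118 (73.6%) had a CpG inside the core, against 52.4% at CpG-poor promoters and 31.8% away from 5' ends. The CpG began at core position 12 in 61.3% of member cores and in 28.7% of those away from 5' ends. At position 2 the shares were 24.0% and 3.08%. Position 3 was A in 53.9% of member cores and G in 25.4%. Away from 5' ends it was A in 86.1% and G in 3.72%. Where G at position 3 was allowed beside A, 51.9% of members held the core (50.4 to 53.4), and 192 instead of 69 had it without a mismatch. The difference from CpG-poor promoters then was -10.1 points (-12.9 to -7.37) and that from peaks away from 5' ends -25.6 points (-27.2 to -24.1). The share also rose in windows without a summit, to 14.6% at 5' ends without a peak and 5.61% at summits moved downstream. This wider core was chosen after the base makeup had been seen.

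The 1520 members with 1 best core held 1116 distinct cores, and the commonest cores are shown.
core A: CCAGAAGAGGGCAT
core B: CCAGAAGAGGGCGT
core C: CCGCCAGGGGGCGC
core D: CCGGCAGGGGGCGC
core E: CCGCCAGAGGGCGC

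Cores A and B differ at 1 position (A13G) and were seen at 30 and 27 members. Core A was also the commonest core away from 5' ends, at 2334 peaks, where 35784 had 1 best core. It was the commonest at CpG-poor promoters too, at 23 peaks, where 891 had 1 best core. Cores C, D and E have CpGs at positions 2 and 12 and were seen at 24, 13 and 10 members. Core C was also seen at 11 peaks of CpG-poor promoters. Member cores lay in soft-masked sequence, where the reference marks repeats and low-complexity DNA, in 6.97% of cases, against 10.6% at CpG-poor promoters and 25.6% away from 5' ends. The differences were -3.58 points (-6.06 to -1.26) and -18.6 points (-19.9 to -17.2). Among members with 1 mismatch, the 342 whose core held a CpG had a median signal of 241.1 and the 126 without one 133.9. With 2 mismatches the medians were 90.3 and 67.1, and without a mismatch 316.6 and 302.8, the last over only 46 and 23 peaks. A mismatch at position 12 removes the CpG that begins there. The groups were not split by the position of the mismatch, so the 2 cannot be told apart here.

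Summits gathered just upstream of the 5' end. Of the members 2306 (55.5%, 54.0 to 57.05) lay upstream, and the median position was 38 bp upstream. CpG-poor single promoters were much alike, with 53.1% upstream (50.8 to 55.5) and a median position 17 bp upstream. At divergent pairs 15.8% lay upstream (12.5 to 19.7). The 200 bp before the 5' end held 1216 summits, 29.3% of all, and the 200 bp after it 708. The peaks before the 5' end were also stronger, with a median signal of 89.1 against 36.0 after it, and 41.7% of them held the core against 22.9%. Summits with the core lay upstream in 64.9% of cases and those without it in 49.7%, a difference of 15.2 points (12.2 to 18.3). By annotation 770 summits lay in a 5' UTR, 648 in an intron, 333 in a coding exon and 4 in a 3' UTR. The core was found at 25.5% of those in a 5' UTR and at 44.8% of those upstream. Polr2j, a subunit of RNA polymerase II, had the strongest member within 10 bp of a 5' end, at 546.9 with its summit on the first base, and Ndufb7 of respiratory complex I followed with 465.5.

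**Figure D2:**
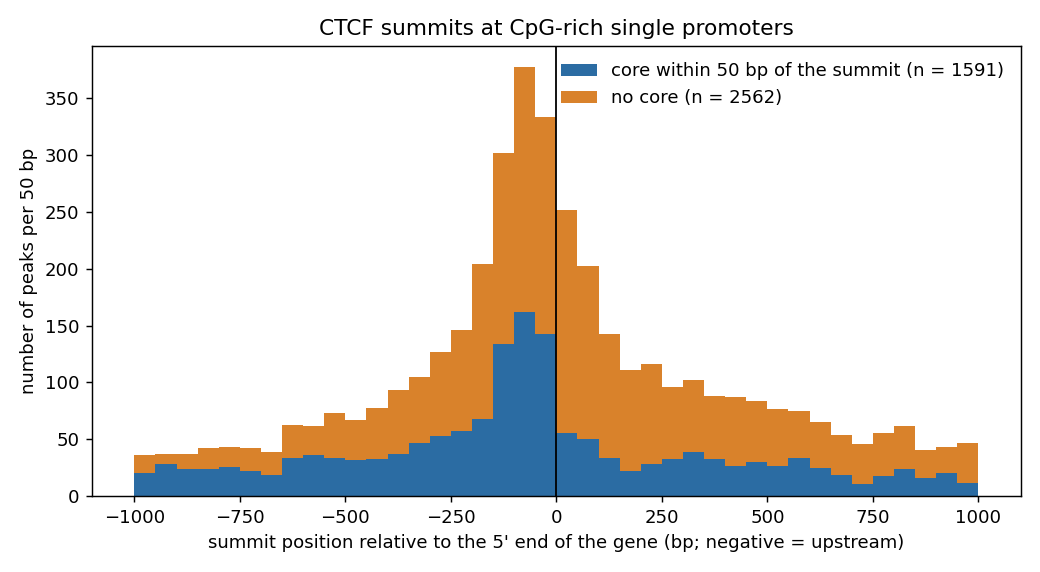
Number of member summits per 50 bp by position relative to the 5' end of the gene, negative being upstream; blue peaks hold the core and orange peaks do not. Summits pile up in the 200 bp before the 5' end, and the blue part drops sharply after it.

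The strongest members lay there most often. Split into 5 equal groups by signal, 77.7% of the strongest group lay upstream and 48.9% within 200 bp upstream. In the weakest group these shares were 42.8% and 20.2%. The core was present at 72.9%, 46.5%, 33.6%, 24.5% and 13.98% from the strongest to the weakest group.

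Cores pointed more often along the gene than against it. Of 1520 members with 1 best core, 869 (57.2%, 54.6 to 59.7; replicate lists alone 57.7% ± 0.42, SD, n = 2) had it on the strand of the gene. The excess lay upstream, where 614 of 982 cores (62.5%, 59.4 to 65.6) pointed along the gene. Downstream of the 5' end 255 of 538 did (47.4%, 43.1 to 51.7), a difference of 15.1 points (9.91 to 20.3). Within 200 bp upstream the share was 67.8%. It was higher for closer matches, with 66.7% of perfect cores, 61.3% with 1 mismatch and 54.5% with 2. In the strongest of the 5 signal groups 64.8% of cores pointed along the gene (60.7 to 68.7), and in the weakest 40.7% (31.6 to 50.4). The overall share did not set CpG-rich promoters apart: at CpG-poor single promoters it was 57.7%, and the difference was -0.52 points (-4.58 to 3.58).

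**Figure D3:**
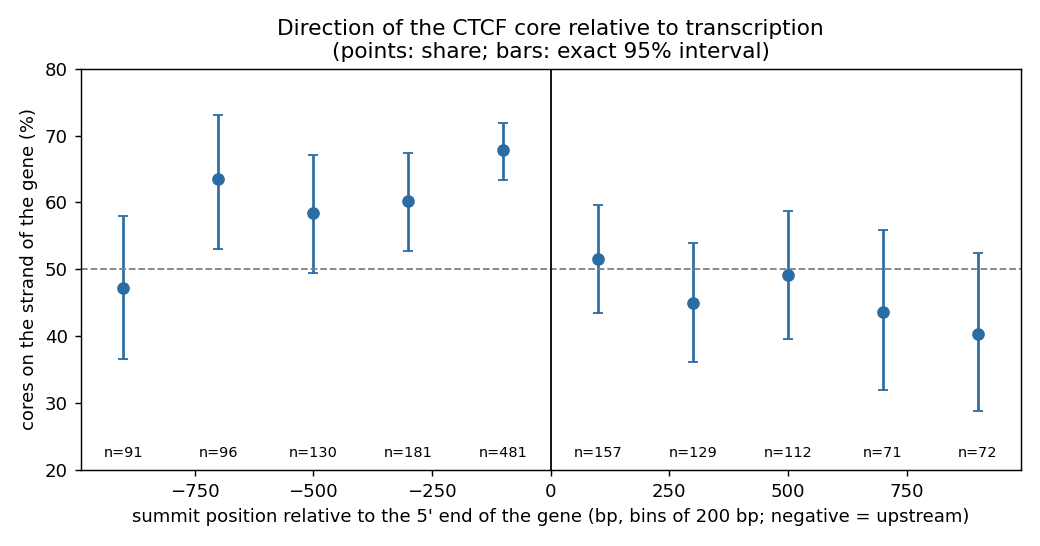
Share of member cores on the strand of the gene in bins of 200 bp around the 5' end, with exact 95% intervals and the number of cores per bin; the dashed line marks 50%. The share is 67.8% in the bin just before the 5' end and between 40.3% and 51.6% in the bins after it.

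Promoters with a closer match to the core had a peak more often. Of the 80 CpG-rich single promoters with a perfect core within 1 kb of the 5' end, 76 had a peak (exact interval 87.7% to 98.6%), and 70 had a summit within 50 bp of that core. With 1 mismatch as the best, 610 of 866 had a peak (70.4%), with 2 mismatches 1960 of 4399 (44.6%), and with 3 or more 919 of 2961 (31.0%). The summit lay on that best core in 53.0%, 14.8% and 4.93% of these promoters. Where several matches tied as best, only the first was checked, so these shares can be too low. The 4 promoters with a perfect core but no member peak were Mapk1ip1, Pkn2, Tns1 and Tsen54. At Mapk1ip1, Tns1 and Tsen54 a summit of the same list did lie within 50 bp of the core, and the 5' end of another gene was nearer to it. Pkn2, a protein kinase, had no such summit, and the calls next to its core, 54 bp upstream, ranked 42717 and 54921 in the lists of replicates 1 and 2. In all, 260 promoters had a core with 0 or 1 mismatch and no member, and at 15 of them a summit lay on the core. Of the other 245, 141 had a call within 100 bp of the core in neither replicate list. Over all 260 promoters these cores held a CpG in 65.0% of cases against 70.1% at promoters with a peak, and lay a median of 385 bp from the 5' end against 263 bp.

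Gene lists were read against the background of 42.9% of all CpG-rich single promoters with a peak. Lists of translation, splicing, replication and proteasome genes had shares between 45.8% and 58.1%. Among these only the interval of cytosolic ribosomal proteins lay above the background, and the other intervals held it. The intervals were not adjusted for the 20 lists, which were chosen with earlier results of these data known. An interval beside the background is therefore a description and no test. Among cytosolic ribosomal proteins 36 of 62 promoters had a peak (58.1%, 44.8 to 70.5), with a median strongest signal of 194.6. Rplp0 of the ribosomal stalk had a signal of 514.0, Rps3a1 507.3 and Rpl26 481.0, while Rpl10l, Rpl12 and Rpl13 had no peak. For translation factors and tRNA synthetases the count was 35 of 64 (54.7%, 41.7 to 67.2), with Eif3g of an initiation factor at 414.0 and the synthetases Mars and Rars at 398.6 and 373.8. The spliceosome list had 19 of 36 (52.8%, 35.5 to 69.6), led by Snrpd1 at 517.6 and Snrpe at 446.4, both Sm proteins. Replication and cell cycle genes had 22 of 42 (52.4%, 36.4 to 68.0). After Gins4 came the DNA polymerase subunit Pold1 at 450.8 and the helicase subunit Mcm5 at 399.7. Proteasome subunits had 11 of 24 (45.8%, 25.6 to 67.2), with Psmd6 at 428.8. Genes of mitochondria stood near or under the background. Respiratory chain subunits had 18 of 41 (43.9%), led by Ndufa6 at 530.7, and mitochondrial ribosomal proteins 16 of 44 (36.4%, 22.4 to 52.2), led by Mrps33 at 500.1.

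The genes that make or guard chromatin included CTCF's partners. Of the list of CTCF, cohesin and condensin genes 11 of 17 had a peak (64.7%, 38.3 to 85.8). Esco1, which acetylates cohesin, had 436.9, Pds5b, a cohesin regulator, 365.7, and Smc3, a subunit of the ring, 314.3. Esco2, Ncapg2 and Ncaph had none. For DNA methylation and Polycomb machinery the count was 15 of 32 (46.9%), led by Kmt2b, a histone H3 methyltransferase, at 374.0 and the CpG-binding Cxxc1 at 371.1. Bmi1, Cbx6 and Cbx8 of the Polycomb complexes had none. DNA repair genes had 14 of 29 (48.3%), led by Nbn at 438.5, and zinc finger genes named Zfp 67 of 167 (40.1%, 32.6 to 48.0), led by Zfp398 at 521.3. Imprinted genes had 10 of 20, with H13 at 434.3, Commd1 at 153.2 and the ubiquitin ligase Ube3a at 117.1.

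Developmental regulators were the list with the lowest share. Only 14 of 93 patterning genes, which cover Pax, Sox, Tbx, Wnt, Fgf, Bmp and related families, had a peak (15.1%, 8.48 to 24.0), and 4 of 24 Hox genes (16.7%, 4.74 to 37.4). Wnt7a at 279.7, Fgf15 at 226.1 and Gli2, a Hedgehog effector, at 165.3 were the strongest of the first list. Hoxa7 had 377.3, Hoxb5 260.8 and Hoxa5 212.5, and the median over the 4 bound Hox promoters was 236.7. Hoxa11 and Hoxa13 were among those with none. Promoters of blood-forming factors had 4 of 14 (28.6%, 8.39 to 58.1), with Bcl11a, a repressor of fetal globin, at 90.7, Gata2, a stem cell factor, at 21.4 and the histone methyltransferase Kmt2a at 17.3. Hepatocyte factors had 6 of 11 (54.5%, 23.4 to 83.3), and its 3 strongest were the C/EBP factors Cebpa at 285.8, Cebpd at 173.7 and Cebpb at 168.7. The cores of this trio are shown because all 3 point along the gene from upstream and those of Cebpd and Cebpb have no mismatch. They were picked for these traits, and 62.5% of all member cores upstream of a 5' end pointed along the gene.
Cebpa, chr7:35119229-35119258, plus strand: ccgtttggaCACCAGGGGGCGatgcccgac
Cebpd, chr16:15886648-15886677, plus strand: ctatgctaCCACCAGGTGGCACagctttaa
Cebpb, chr2:167688661-167688690, plus strand: cgcgtcctCCAGCAGGGGGCGGgcggcggc

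Liver metabolism and the clock were mixed. Cholesterol and bile acid genes had 6 of 15 (40.0%), with Scap, a sterol sensor, at 503.6 and Lss, which makes lanosterol, at 55.3. Glycolysis and gluconeogenesis genes had 6 of 11 (54.5%), with the liver phosphofructokinase Pfkl at 230.5, the glucose transporter Slc2a1 at 125.7 and Gpi1 at 120.2. Clock genes had 11 of 20, with Timeless at 326.2, Ciart at 135.5 and Per2 at 84.8, and Arntl, Bhlhe41 and Dbp had none. Of the clustered protocadherins only 3 promoters met the rule, and 1 of them, Pcdhgc3, had a peak, at 123.7. Intervals of lists of this size are wide, and no list was tested.

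**Figure D4:**
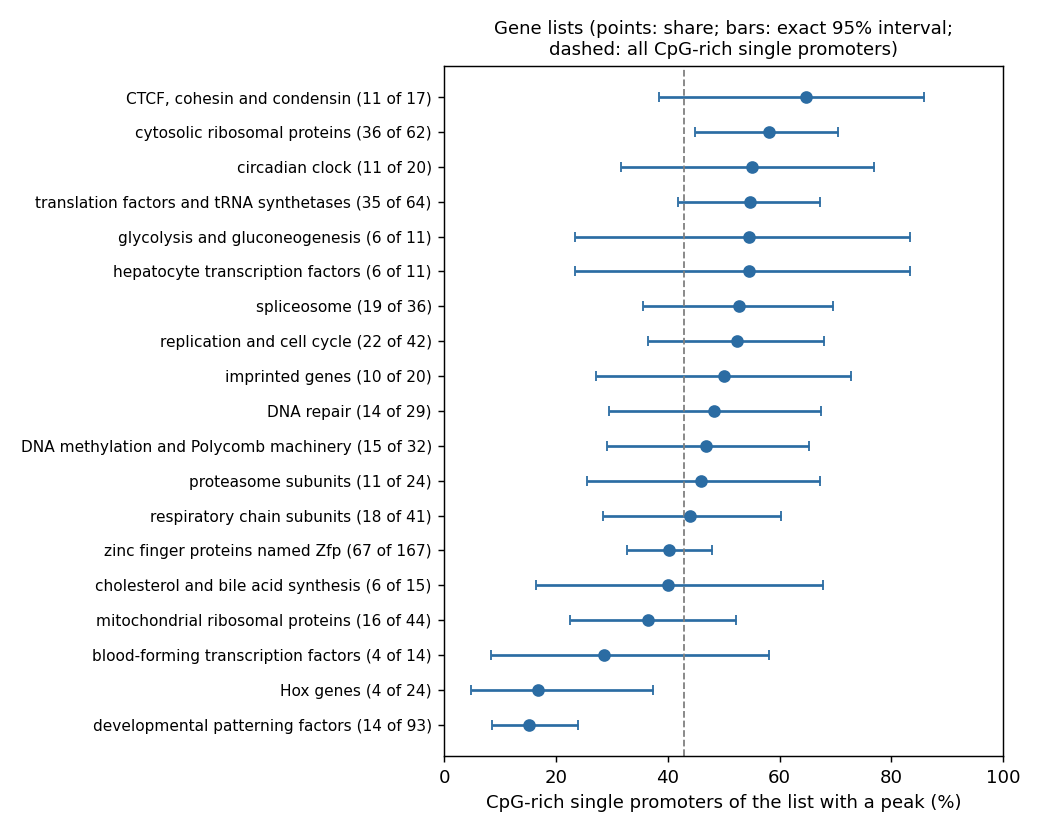
Share of CpG-rich single promoters with a peak in each gene list of 10 or more such promoters, with exact 95% intervals and counts; the dashed line marks the 42.9% of all such promoters. Developmental patterning genes at 15.1% and Hox genes at 16.7% lie lowest, and the CTCF, cohesin and condensin list at 64.7% highest.

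Short motifs of other promoter factors were counted within 50 bp of the summit on both strands without mismatch. The SP and KLF word GGGCGG, which can overlap the end of the CTCF core, stood at 25.8% of members with the core and 29.2% of those without it. It stood at 47.1% of 5' ends without a peak and 51.2% of 5' ends with one. The ETS word CCGGAAG was found at 3.52% and 5.62% of members and at 10.5% and 11.6% of 5' ends. For the NF-Y word CCAAT the shares were 8.55% and 9.21% of members and 15.5% and 13.2% of 5' ends. The members' windows lay off the 5' end and had a lower median GC, 65.3% and 66.3% against 69.3%. Among members without the core within 100 bp of a 5' end, GGGCGG stood at 42.6% and CCGGAAG at 10.8%, against 47.1% and 10.5% at 5' ends without a peak. CCAAT stood at 9.26% of them against 15.5%, and TGACGTCA, the CREB word, at 0.926% against 2.19%. The words for NRF1 (GCGCATGC), YY1 (AAGATGGC), E-box factors (CACGTG), CREB (TGACGTCA) and the TATA box (TATAAA) were each found at under 4% of members. At 5' ends without a peak they stood at 3.10%, 2.43%, 5.25%, 2.19% and 2.07%. Among members without the core within 100 bp of a 5' end the shares were 3.70%, 3.04%, 3.04%, 0.926% and 0.926%. There NRF1 and YY1 were thus not below the 5' ends without a peak. The ZNF143 word ACTACAA stood at 0.629% of members with the core and 1.01% of those without it, against 0.802% of 5' ends without a peak. Members without the core had a median signal of 34.7 with GGGCGG and 34.5 without it.

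The replicates matched at most members. Of the 4153 members 3799 (91.5%, 90.6 to 92.3) had a summit within 100 bp in both replicate lists, while 167 were in replicate 1 only, 147 in replicate 2 only and 40 in neither. Matches were sought in the full lists of 300000 peaks each, so very weak calls counted, as for Gsg1l at rank 282749 in replicate 2. Away from 5' ends 97.7% were matched in both. All of the strongest signal group by signal was matched in both lists, and 63.5% of the weakest. Spearman's rank correlation of the signal was 0.939 across the 3799 peaks, 0.977 across 1554 with the core and 0.886 across 2245 without it. These values run across peaks of a list that was itself made from both replicates, so they are descriptions. The median ratio of replicate 1 to replicate 2 was 1.05, and 90% of ratios lay between 0.549 and 1.97.

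**Figure D5:**
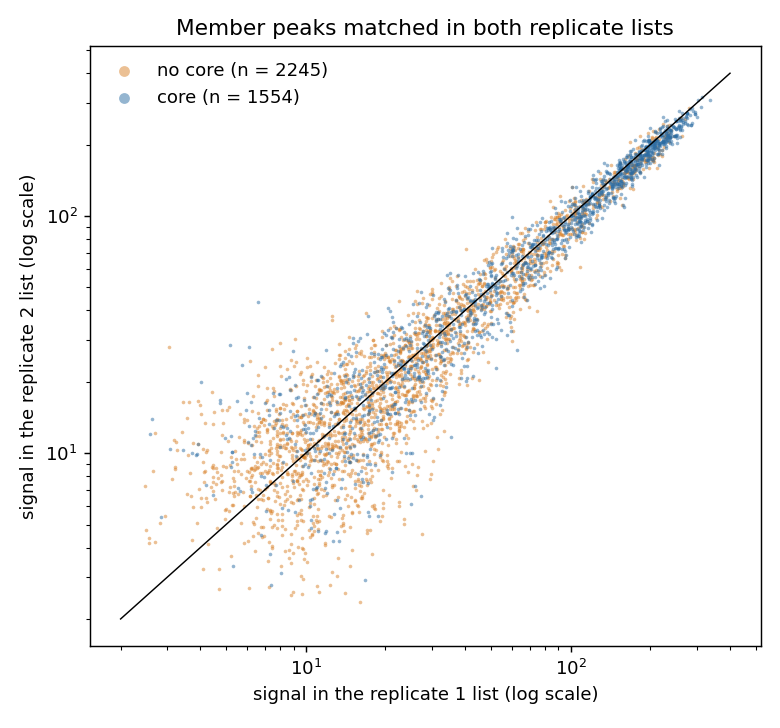
Signal of the 3799 members matched in both lists, replicate 2 against replicate 1, both on log scales with the line of equality; blue points hold the core and orange points do not. Points follow the line at high signal and scatter widely at low signal, where most members lack the core.

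The nearest other peak lay a median of 3.59 kb away, against 3.56 kb at divergent pairs, 4.71 kb for CpG-poor single promoters and 6.99 kb away from 5' ends. Another peak lay within 5 kb of 56.4% of members, 55.8% of peaks at divergent pairs, 52.2% at CpG-poor promoters and 41.0% away from 5' ends. Members without a good core lay closest, with a median of 2.96 kb at 4 or more mismatches and 4.28 kb for perfect cores. The same order was seen at CpG-poor promoters, 4.12 and 5.19 kb, and away from 5' ends, 5.36 and 6.84 kb. Other peaks at the same promoter counted as neighbours.

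The peaks on either side of each threshold were close in the measure that it used, but their signals differed. Socs1, an inhibitor of cytokine signalling, was just inside with a summit 1000 bp upstream and a signal of 344.5, and Rora, a nuclear receptor, was the nearest outside, just past 1 kb, with 17.2. Cped1 was just inside at a GC content of 50.05% with 193.9, and the histone gene Hist1h4c just outside at 49.95% with 310.0. Mfsd4b3 had the lowest CpG ratio inside, 0.60012, with 270.3, and Zfp963 the highest outside, 0.59964, with 13.9. Sgsm2 had the closest divergent partner that was kept, 1011 bp away, with 52.5, and Mrpl41 lay in a pair left out at 935 bp with 21.8.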

How the data were processed

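The authors deposited peak lists in narrowPeak form on mm10, per the labels, 1 for each replicate and lists that keep reproducible peaks by the irreproducible discovery rate (IDR). Values here come from the optimal IDR list. Signal values were used as the authors deposited them, on a scale that is not stated. The aligner, peak caller and thresholds behind the lists were not given in the sources used here. No read counts were used, so depth is unknown. The replicate lists end at 300000 peaks each. From each the 57220 strongest were used as an alternative. Of the members 61.7% have the width 284 bp, which limits the precision of their summits.

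Summits were set against GENCODE M21 and GRCm38, the assembly mm10 names. The CTCF core has 14 bases and was sought in the 50 bp on each side of a summit, up to 2 mismatches. The search was tested on simulated sequences. Direction was read only where 1 best match existed. Shares have exact Clopper-Pearson 95% intervals and differences Newcombe intervals, and no p-value was computed. Python 3.11.15, NumPy 2.4.6, SciPy 1.17.1 and Matplotlib 3.10.9 were used.

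The members and the 20 gene lists were chosen with earlier results of these data known. Genes were named by rule: the 10 strongest members, the 5 strongest with a perfect core and without a core, the 3 strongest and up to 3 unbound promoters of each list in alphabetical order, promoters with the most peaks, the strongest of each core class, those nearest each threshold, and unbound promoters with the best cores. The weakest members and those nearest a 5' end were added after their values were seen, as were 3 alternatives: a wider core, opposite 5' ends in either order, and summits nearest to another gene. The others were the stronger 28610 peaks, the conservative list, the replicates alone, and other distances, composition thresholds and core settings. A few named genes and sequences that the rule selects are not reported here.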

Additional observations from a re-analysis of the deposited data

How the results depend on the processing

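The difference in core share kept its sign, and the share of cores along the gene and of upstream summits stayed above 50%, in every alternative run. The median percentile of members passed from below to above the middle of the list when only the stronger 28610 peaks were kept. The share of CpG-rich single promoters with a peak was 40.7% in the conservative list, 19.5% with the stronger 28610 peaks, 34.8% within 500 bp and 45.5% at a GC content of at least 55% and a CpG ratio of at least 0.75. It was 44.0% with opposite 5' ends in either order left out and 45.2% when any summit within 1 kb counted. The share of members with the core was, in the order of the first 4 settings, 39.5%, 59.2%, 36.0% and 36.5%, then 38.9% with opposite 5' ends left out, 13.1% at 1 mismatch, 30.2% within 25 bp and 51.9% with A or G at position 3. The median percentile was 41.2 in the conservative list, 53.4 within the stronger peaks and 37.4 at the stricter composition. Cores along the gene made up 58.2% (conservative), 62.4% (stronger peaks), 60.2% (500 bp), 62.0% (1 mismatch), 56.3% (25 bp) and 57.6% (A or G at position 3). Upstream summits made up 56.4%, 68.2%, 58.8% and 58.1% in the first 4 settings and 54.5% with opposite 5' ends left out. The difference in core share from CpG-poor promoters was -14.3 points with stronger peaks, -14.8 within 500 bp, -11.7 at 1 mismatch, -10.9 at the stricter composition and -10.1 with A or G at position 3. Members matched in both replicates made up 93.1% (conservative), 99.8% (stronger peaks), 83.8% within 50 bp and 98.0% by an overlap of 1 bp. Leaving out either replicate gave 43.3% to 43.6% of promoters, 37.70% to 37.73% with the core, percentiles of 40.2 to 41.0, 57.4% to 58.0% along the gene, 55.8% to 55.9% upstream and differences of -16.6 to -15.7 points. The choice of list strength moved the promoter share and the core share by over 1.5 times, since it keeps fewer and stronger peaks, and so did 1 mismatch for the core share and A or G at position 3 for the difference from CpG-poor promoters. No paired analysis was possible because the series has 1 group. Depth is unknown, so a promoter without a peak may hold binding below the authors' threshold.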

Other observations

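By chromosome, the share of CpG-rich single promoters with a peak ran from 38.6% on chromosome 12 (128 of 332, exact 95% interval 33.3 to 44.0) to 48.4% on chromosome 10 (211 of 436, 43.6 to 53.2). The share of member peaks with the core ran from 30.7% on chromosome 14 to 48.0% on chromosome 16.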
